A study of Mus musculus with 8 samples.

Results

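The genes described here are those of major histocompatibility complex (MHC) class I antigen presentation and peptide loading in cultured mouse eosinophils. The list held 31 genes: 15 heavy chains, the light chain B2m, 8 genes of peptide loading and folding, 3 inducible proteasome subunits, 3 genes of the PA28 proteasome activator and the transactivator Nlrc5. Members were chosen by gene symbol, and all 31 were found among the 15917 genes of the count table. They were read in 2 comparisons, a type 1 stimulus against no cytokine and a type 2 stimulus against IL-5 alone.

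The series sequenced mRNA of eosinophils, granule-bearing leukocytes of allergic and antiparasitic immunity, from the blood of C57BL/6 mice. The labels give the animals as IL-5 transgenic (line NJ.1638), a model in which excess IL-5 fills the blood with eosinophils, while the genotype label reads WT. CD90-positive and B220-positive cells were depleted with magnetic beads, purity was over 97% by stained cytospins, and the cells were cultured for 18 h in medium with serum. The first experiment set cells without added cytokine (CN) against cells given IFN-γ and TNF-α at 15 ng/mL (E1), a type 1 stimulus. The second set cells given IL-5 at 10 ng/mL (E0) against cells given a type 2 mixture (E2) of IL-33 at 30 ng/mL and 3 cytokines at 10 ng/mL each, namely IL-4, GM-CSF and IL-5. Each of the 4 groups had 2 libraries, called replicate 1 and replicate 2 and always given in that order below. The labels do not say whether replicates came from separate animals or separate cultures, so the p-values measure the spread between these libraries only. In every group replicate 1 carried Y-linked transcripts and replicate 2 carried Xist, so the spread between replicates includes a difference of sex. Because CN and E1 came from a different experiment than E0 and E2, levels are set against each other only within an experiment, and the changes of the 2 experiments are compared as changes.

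MHC class I molecules present peptides from inside the cell to CD8+ T cells and to receptors of natural killer cells. The proteasome cuts cytosolic proteins, and the TAP transporter carries the peptides into the endoplasmic reticulum. There tapasin, calreticulin and ERp57 hold the empty heavy chain, paired with the light chain β2-microglobulin, until a peptide fits. Interferon-γ is known to raise most of these genes through IRF1 and the transactivator NLRC5, and to exchange the catalytic proteasome subunits for the inducible ones of the immunoproteasome.

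Promoter windows of 300 bases, from 250 before to 50 after each start, were taken from RefSeq on GRCm38.p6 and matched 24 of the 31 members, in 26 windows. The 7 others were Nlrc5, Tap2, Tapbpl, Cd1d1, H2-T10, H2-T24 and H2-Q1. The windows were searched on both strands for the interferon response pattern GAANNGAAA and a wider form, GAAA and GAAA parted by any 2 bases, which can share letters with the first and does so in Psme1, and for the κB forms GGGANTTCC and GGGATTCCC, the last of which was chosen after the sequences had been seen. In the 6 stretches below, those of H2-K1, H2-Q6, H2-Q7 and H2-Q10 are alike around these matches, and those of H2-M3 and B2m less so. The 6 are those of the 12 genes with an interferon response pattern whose stretch overlapped no annotated exon. Each runs 5′ to 3′ on the gene's strand, and capitals mark the matches, of which those to the interferon response patterns read as the reverse complement in all but B2m.
H2-K1: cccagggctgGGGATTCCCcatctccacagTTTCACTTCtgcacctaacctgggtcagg
H2-Q6: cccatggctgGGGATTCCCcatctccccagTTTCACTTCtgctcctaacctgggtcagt
H2-Q7: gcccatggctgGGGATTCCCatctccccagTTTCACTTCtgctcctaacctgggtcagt
H2-Q10: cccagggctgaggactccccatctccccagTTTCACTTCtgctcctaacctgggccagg
H2-M3: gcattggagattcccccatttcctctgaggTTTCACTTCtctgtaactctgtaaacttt
B2m: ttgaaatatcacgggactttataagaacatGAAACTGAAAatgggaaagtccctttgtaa

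These lie at chr17:34000409-34000467 on the minus strand for H2-K1, and on the plus strand at chr17:35424668-35424726 for H2-Q6, chr17:35439012-35439070 for H2-Q7, chr17:35469904-35469962 for H2-Q10, chr17:37270103-37270161 for H2-M3 and chr2:122147518-122147577 for B2m. H2-K1, H2-Q6 and H2-Q7 carried GGGATTCCC ahead of the interferon response pattern, whereas H2-Q10, H2-M3 and B2m matched neither κB form in their windows. At least 1 of the interferon response patterns was found in 13 of the 26 member windows (50%), against 10.4% of all 32851 windows of the table. GGGATTCCC stood in 5 member windows (19.2%; H2-K1, H2-D1, H2-Q6 and H2-Q7) against 0.353% of all, and GGGANTTCC in 1, that of H2-Q4 (3.85% against 1.68%). The GAS pattern TTCNNNGAA was found in 7.69% of member windows (H2-M3 and Psmb8) and in 8.3% of all. CCAAT boxes were found in 69.2% of member windows and 37.4% of all. Several of these windows belong to near copies of one gene, so they are not separate examples, and a match is a description of letters and not of a bound factor.

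Library totals ran from 60809057 to 95065752 counts, so that a count of 0 allowed up to 0.0316 to 0.0483 CPM (counts scaled to a common library size, with TMM factors), the level of 3 counts. Summed levels of 9 eosinophil markers were 7136 to 7377 CPM in CN, 5563 to 6361 in E1, 6540 to 6625 in E0 and 4131 to 4174 in E2, with 0 called higher and 2 lower in E1 and 1 higher and 7 lower in E2. All 9 had counts in every library. Among all genes tested, 9.19% were called higher and 8.08% lower in E1, and 17.0% higher and 18.5% lower in E2. Monocyte, macrophage and dendritic cell markers, of which 14 of 15 were measured, summed to 543 to 591 CPM in CN and 4659 to 4991 in E1, mostly from Ly6c2, and to 519 to 567 in E0 and 844 to 891 in E2. Of these 14, 6 rose in E1 (Csf1r, Ly6c2, Cd14, Flt3, Zbtb46 and Mertk) and 3 fell, among them Cx3cr1 and Mrc1, the latter at 0 in replicate 2 of E1, and 5 rose and 9 fell in E2. Neutrophil markers (11 measured) summed to 2656 to 3043 CPM in CN, 1326 to 1789 in E1, 2773 to 3471 in E0 and 930.3 to 1323 in E2. Of these 11, 1 was called higher and 6 lower in E1, and 0 higher and 5 lower in E2. The largest sum over T cell (4 measured), B cell (6), NK cell (6) or basophil and mast cell (6) markers in any library was 45.1 CPM. The strand setting of the counting is not given in the sources used here, and opposite-strand exons of other genes cover 29.4% of the exons of H2-T22, 27.1% of H2-T10, 24.9% of Tapbp, 19.1% of H2-Q4, 14.7% of Psmb8, 14.1% of Tap2 and 11.5% of Erap1. The part of the marker shifts in the results below was not tested, and in bulk RNA fewer cells of a type and less RNA per cell cannot be told apart.

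After IFN-γ and TNF-α, nearly the whole class I pathway rose. Of the 31 members, 27 were called higher in E1 than in CN and 1, Mr1, was called lower, and H2-Q2, Canx and Psme3 were not called. Among all 15913 genes tested, 9.19% were called higher and 8.08% lower (1463 and 1286). With library totals as the scaling, 1190 genes were called higher and 1891 lower, the median of all genes was -0.105 on the log2 scale, and 26 members were higher and 1 lower. The increase was at least 2-fold in 25 members, against 4.78% of all genes. The median log2 fold change of the members was 2.63, beside -0.01 over all genes, and the members together took 0.608% and 0.652% of all counts in CN but 2.76% and 2.46% in E1. By role, 13 of 15 heavy chains, B2m, 7 of 8 loading and folding genes, all 3 inducible proteasome subunits, 2 of 3 PA28 genes and Nlrc5 rose.

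With the type 2 cytokines the pathway did not move as a group. Between E0 and E2, 7 members were called higher (H2-Q2, B2m, Nlrc5, Calr, Canx, Pdia3 and Psme2), where 17.0% of all genes were, and 5 were called lower (H2-D1, H2-Q10, H2-T24, Cd1d1 and Psmb9), where 18.5% of all genes were. These counts are near the shares among all genes. The other 19 members were not called, and the median log2 fold change was 0.06 beside -0.02 over all genes. The share of all counts taken by the members was 0.513% and 0.600% in E0 and 0.512% and 0.556% in E2. The test of the difference between the 2 responses called 25 members lower in the E2 response than in the E1 response, against 14.0% of all genes, and 3 higher (H2-Q2, Calr and Canx), against 11.3%. Mr1, Pdia3 and Psme3 were not called in that test.

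**Figure D1:**
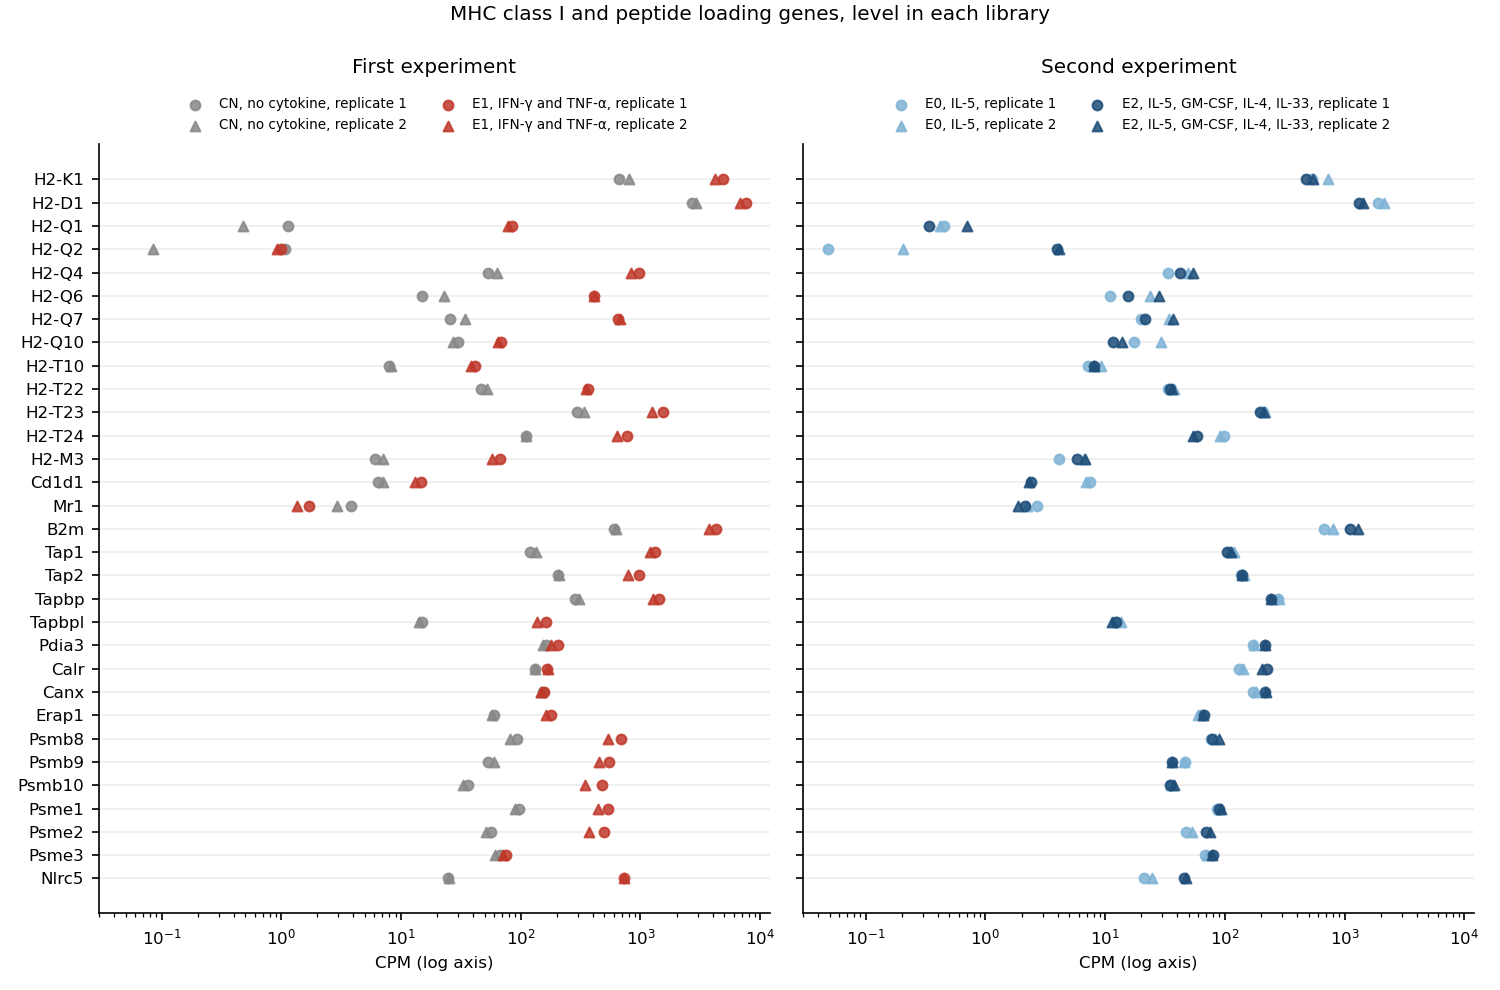
Level of each of the 31 genes in each library, in CPM on a log axis, with the first experiment (CN and E1) on the left and the second (E0 and E2) on the right, and circles and triangles for replicates 1 and 2. In the first experiment the 2 E1 points of 28 genes lie to the right of both CN points, as do those of 26.5% of all genes tested, whereas in the second the points of most genes lie close to each other.

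Taken across the 2 experiments, 5 members rose in both (B2m, Calr, Nlrc5, Pdia3 and Psme2) and 5 rose with the type 1 cytokines and fell with the type 2 cytokines (Cd1d1, H2-D1, H2-Q10, H2-T24 and Psmb9). Of all genes tested, 3.50% were in the first of these classes and 1.55% were in the second. A further 17 members rose in E1 and were not called in E2, against 4.14% of all genes. Canx and H2-Q2 rose in E2 and were not called in E1, a class that held 11.4% of all genes, but H2-Q2 in E1 depends on 1 library, as given below.

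**Figure D2:**
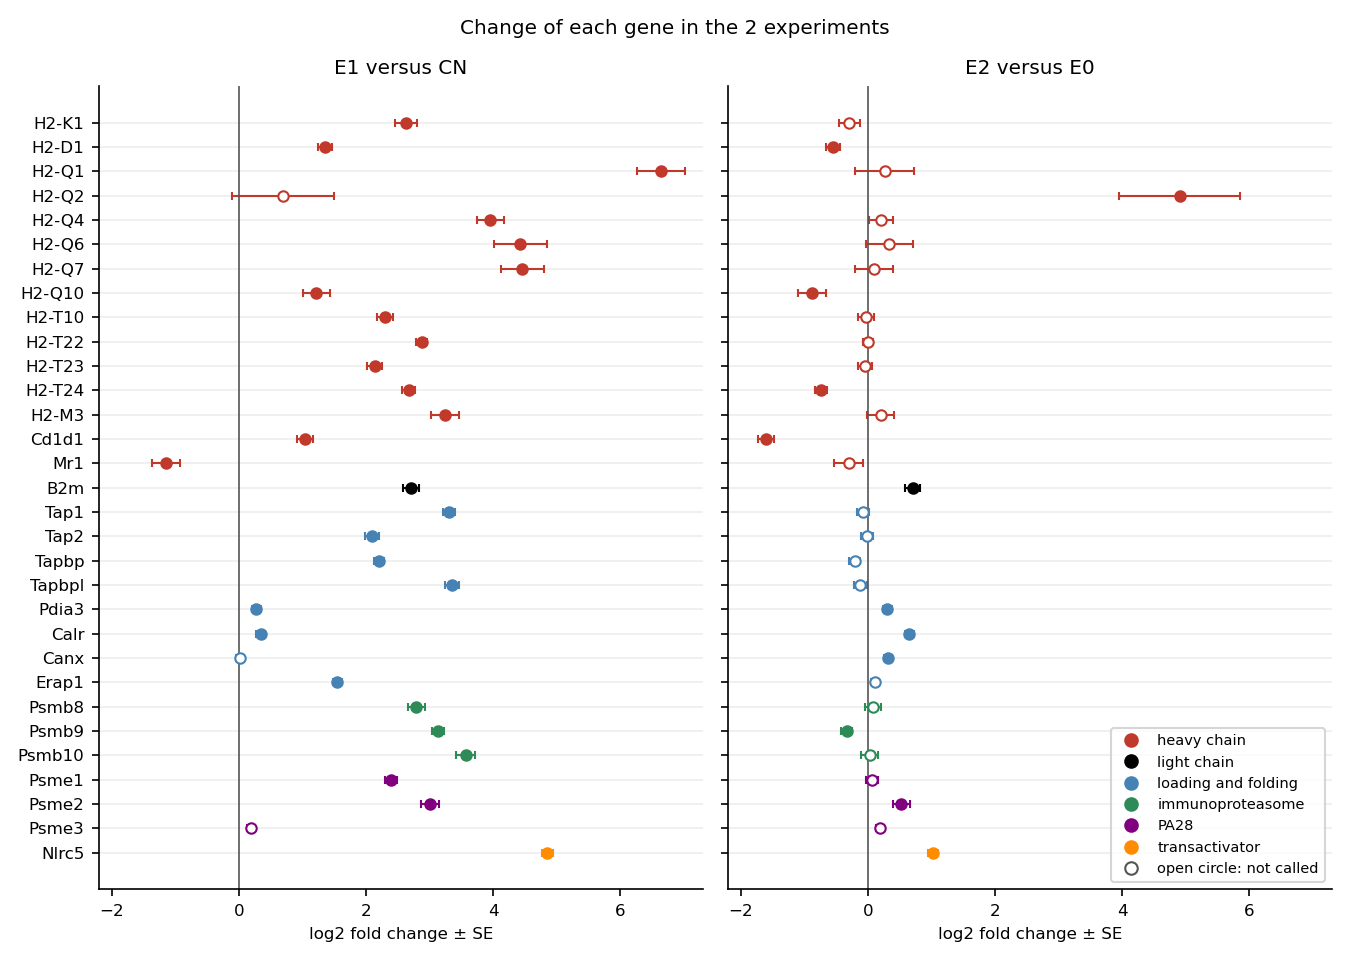
Log2 fold change of each gene with its standard error in E1 versus CN (left) and E2 versus E0 (right), coloured by role, with open circles for genes that did not pass an adjusted p of 0.05. On the left only Mr1 lies clearly below 0, and on the right most points lie within 1 unit of 0, with H2-Q2 at 4.90 and Cd1d1 at -1.61.

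The classical heavy chains H2-K1 (chr17:33996017-34000347, minus strand, mm10) and H2-D1 (chr17:35262730-35267499, plus strand) present peptides to CD8+ T cells. H2-K1 stood at 665 and 796 CPM in CN and at 4874 and 4162 CPM in E1. H2-D1 stood at 2667 and 2921 CPM in CN and at 7569 and 6773 CPM in E1. For both genes the E1 libraries lay above the CN libraries, with log2 fold changes of 2.63 ± 0.18 (SE; adjusted p = 2.46e-05) for H2-K1 and 1.36 ± 0.11 (adjusted p = 7.87e-05) for H2-D1. Per length of transcript, H2-D1 was the more abundant in every group: mean levels of H2-D1 and H2-K1 were 1083 and 249 CPM per kb in CN and 2781 and 1538 in E1.

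In the second experiment H2-D1 was called lower and H2-K1 was not called. H2-D1 fell from 1910.2 and 2125 CPM in E0 to 1311 and 1433 CPM in E2, a log2 fold change of -0.56 ± 0.11 (adjusted p = 0.00551). Without replicate 1 of E2 that change was -0.49 and its adjusted p was 0.0533. H2-K1 stood at 530.4 and 720.0 CPM in E0 and at 475 and 546 CPM in E2, and the groups overlapped (log2 fold change -0.29 ± 0.17, adjusted p = 0.208). It was lower in E2 within each replicate number, though the labels pair no samples. With a term for replicate number within each experiment, H2-K1 was called lower (-0.28, adjusted p = 0.0419). Both responses differed from those in E1, by -2.92 for H2-K1 and -1.92 for H2-D1 on the log2 scale.

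The nonclassical heavy chains of the Q region lie in a row on chromosome 17, and they gave both the largest and the smallest responses of the H2 complex. H2-Q7 encodes a Qa-2 antigen, a form of class I that can be anchored by a lipid, and H2-Q6 is its near copy. H2-Q7 (chr17:35439155-35443773) rose from 25.9 and 34.5 CPM in CN to 649 and 681 CPM in E1, and H2-Q6 (chr17:35424850-35430055) from 15.1 and 23 CPM to 411 and 409 CPM. The log2 fold changes were 4.46 ± 0.34 (adjusted p = 4.99e-05) and 4.43 ± 0.42 (adjusted p = 0.000164). In E0 and E2, H2-Q7 stood at 19.9 and 34.4 CPM against 21.3 and 37.1 CPM, and H2-Q6 at 11.0 and 23.5 CPM against 15.6 and 28.2 CPM, with overlap and no call. Of the 50-base stretches of annotated H2-Q6 and H2-Q7 transcripts, 32% and 26.4% also occur in transcripts of other genes, so reads could be shared out between copies. The counts of the 2 genes were also added together, an alternative chosen after seeing the data. The change was then 4.45 ± 0.38 in E1 (adjusted p = 9.57e-05) and 0.20 ± 0.33 in E2 (adjusted p = 0.669). This sum leaves out other copies, since H2-Q6 shares 12.3% of its stretches with H2-Q4 and H2-Q7 shares 14% with H2-Q10.

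H2-Q4 (chr17:35379617-35385290) encodes the Qb-1 antigen and was the most abundant Q gene per length in E1, at a mean of 347 CPM per kb against 22.3 in CN. Its libraries read 52.9 and 63.1 CPM in CN and 964 and 836 CPM in E1 (log2 fold change 3.96 ± 0.22, adjusted p = 6.96e-06). In E0 it stood at 33.6 and 49.6 CPM and in E2 at 42.1 and 54.0 CPM, which overlapped. H2-Q1 (chr17:35320405-35325099) had the largest fold change of all members. It went from 1.13 and 0.481 CPM in CN to 85.2 and 77.6 CPM in E1, a 99.7-fold increase (log2 6.64 ± 0.37, adjusted p = 8.05e-06), and stayed under 1 CPM in all 4 libraries of the second experiment. Without 1 library at a time the log2 fold change of H2-Q1 in E1 ran from 6.17 to 7.41, the latter without replicate 1 of CN. Of the 50-base stretches of H2-Q4, H2-Q1 and H2-Q10, 21.8%, 15% and 19% also occur in transcripts of other genes. Those of H2-Q10 share 14% with H2-Q7, so reads could be shared out between these copies too. H2-Q10 (chr17:35470089-35474563), known as a secreted class I protein of the liver, rose from 29.9 and 27.0 CPM to 68.6 and 64.3 CPM in E1 (log2 1.22 ± 0.22, adjusted p = 0.00582). In E2 it fell to 11.6 and 13.8 CPM from 17.3 and 29.5 CPM in E0 (log2 -0.88 ± 0.22, adjusted p = 0.016), but not without replicate 2 of E0 (-0.44, adjusted p = 0.0577) or replicate 1 of E2 (-0.76, adjusted p = 0.105).

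H2-Q2 (chr17:35342242-35346762) was the Q gene that rose in E2, and its transcripts share 12.9% of their 50-base stretches with H2-Q1. It stood at 0.0483 and 0.203 CPM in E0, the first of which is 3 reads, and at 3.93 and 4.14 CPM in E2, a log2 fold change of 4.90 ± 0.96 (adjusted p = 0.00527). Without replicate 1 of E0 that change was 4.30 (adjusted p = 0.036), and without replicate 2 of E0 it was 6.34 (adjusted p = 0.0197). In the first experiment it stood at 1.08 and 0.0841 CPM in CN and at 0.991 and 0.913 CPM in E1, and was not called (0.69 ± 0.80, adjusted p = 0.622). The 2 CN libraries differed from each other more than CN from E1: without replicate 1 of CN the change was 3.49 (adjusted p = 0.0108), and without replicate 2 it was -0.17. The difference between its 2 responses was 4.21 (adjusted p = 0.0404) and missed the threshold when any 1 library other than replicate 2 of CN was left out (adjusted p = 0.0581 to 0.327). That difference was 1.41 without replicate 1 of CN and 5.08 without replicate 2 of CN, and it was 3.61 and 5.65 without replicates 1 and 2 of E0.

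The T-region and M-region genes encode further nonclassical chains. H2-T23 (chr17:36029773-36032855, minus strand) encodes Qa-1, which shows leader peptides of other class I chains to the CD94/NKG2A receptor of natural killer cells. It rose from 293 and 337 CPM in CN to 1533 and 1240.2 CPM in E1 (log2 2.14 ± 0.12, adjusted p = 9.2e-06) and stood at 207 and 215 CPM in E0 and 196 and 213 CPM in E2, with overlap. Per length it was the highest nonclassical chain in each group, with means of 109 CPM per kb in CN and 480.0 in E1. H2-T24 (chr17:36005695-36020560, minus strand) moved in opposite directions in the 2 experiments. It rose from 110.4 and 110.1 CPM to 773 and 636 CPM in E1 (log2 2.68 ± 0.10, adjusted p = 9.63e-07) and fell from 97.4 and 91.0 CPM to 58.6 and 54.6 CPM in E2 (log2 -0.73 ± 0.10, adjusted p = 0.000875). Both calls stood without each library in turn.

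H2-T22 and H2-T10 encode chains recognised by some γδ T cells, and H2-M3 presents formylated peptides of mitochondria and bacteria. The annotation lists H2-T10 as a polymorphic pseudogene. H2-T22 (chr17:36037128-36042747) went from 46.1 and 52.1 CPM in CN to 368 and 353 CPM in E1, and H2-T10 (chr17:36115876-36121465) from 7.93 and 8.19 CPM to 41.5 and 38.2 CPM. These are log2 fold changes of 2.88 ± 0.08 (adjusted p = 2.15e-07) and 2.31 ± 0.13 (adjusted p = 7.29e-06). In the second experiment H2-T22 stood at 33.7 and 37.4 CPM in E0 and 35.1 and 36.3 CPM in E2, and H2-T10 at 7.15 and 9.23 CPM and 7.99 and 8.08 CPM. The E0 and E2 libraries of both overlapped, and neither was called. These near copies share 31.7% of the 50-base stretches of H2-T10, and the summed pair, also chosen after seeing the data, changed by 2.81 ± 0.09 in E1 (adjusted p = 2.65e-07). H2-M3 (chr17:37270220-37274484) rose from 6.09 and 7.13 CPM to 67.3 and 57.9 CPM in E1 (log2 3.24 ± 0.22, adjusted p = 2.63e-05). It stood at 4.12 and 6.71 CPM in E0 and at 5.77 and 6.78 CPM in E2 and was not called (log2 0.20 ± 0.21), and without replicate 2 of E0 it was called higher (0.61, adjusted p = 0.0396).

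The 2 class I-like chains encoded outside the H2 complex moved in opposite directions in E1. Cd1d1 (chr3:86995834-86999441), which presents lipids to natural killer T cells, rose from 6.44 and 7.05 CPM in CN to 14.6 and 13.0 CPM in E1 (log2 1.03 ± 0.13, adjusted p = 0.000723). In E2 it fell to 2.42 and 2.31 CPM from 7.48 and 6.92 CPM in E0 (log2 -1.61 ± 0.13, adjusted p = 7.6e-05), the largest decrease among the members. Its annotated transcripts share 19.1% of their 50-base stretches with Cd1d2. The difference between the 2 responses was -2.64 (adjusted p = 3.46e-05). Mr1 (chr1:155127277-155146814), which presents vitamin B metabolites to MAIT cells, was the 1 member that fell in E1, from 3.84 and 2.90 CPM to 1.70 and 1.35 CPM (log2 -1.14 ± 0.22, adjusted p = 0.00921). The call was lost without replicate 1 of CN (adjusted p = 0.0623) or replicate 2 of E1 (adjusted p = 0.0504). Mr1 stood at 2.72 and 2.24 CPM in E0 and at 2.13 and 1.88 CPM in E2, without overlap but not called (log2 -0.30 ± 0.22, adjusted p = 0.325), and its 2 responses were not called different (0.84 ± 0.32, adjusted p = 0.0899). Both genes are expressed at low levels, with Mr1 at a mean of 0.563 CPM per kb in CN.

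B2m (chr2:122147686-122153083, plus strand), the light chain shared by all these molecules, rose in both experiments. It went from 600.4 and 619 CPM in CN to 4282 and 3714 CPM in E1 (log2 2.71 ± 0.13, adjusted p = 2.86e-06) and from 678 and 793 CPM in E0 to 1118 and 1281 CPM in E2 (log2 0.71 ± 0.12, adjusted p = 0.00266). The increase in E2 was the smaller one, by -2.01 on the log2 scale (adjusted p = 0.000104). The ratio of light to heavy chain transcripts was examined after the data had been seen. B2m divided by the sum of the 13 H2 heavy chains, both per length, was 0.474 and 0.438 in CN and 0.777 and 0.766 in E1, a 1.69-fold higher ratio. It was 0.730 and 0.739 in E0 and 1.60 and 1.64 in E2, a 2.21-fold higher ratio. The groups did not overlap in either experiment, and the exact permutation test, two-sided, gave p = 0.333, the smallest value that 2 against 2 libraries allow.

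**Figure D3:**
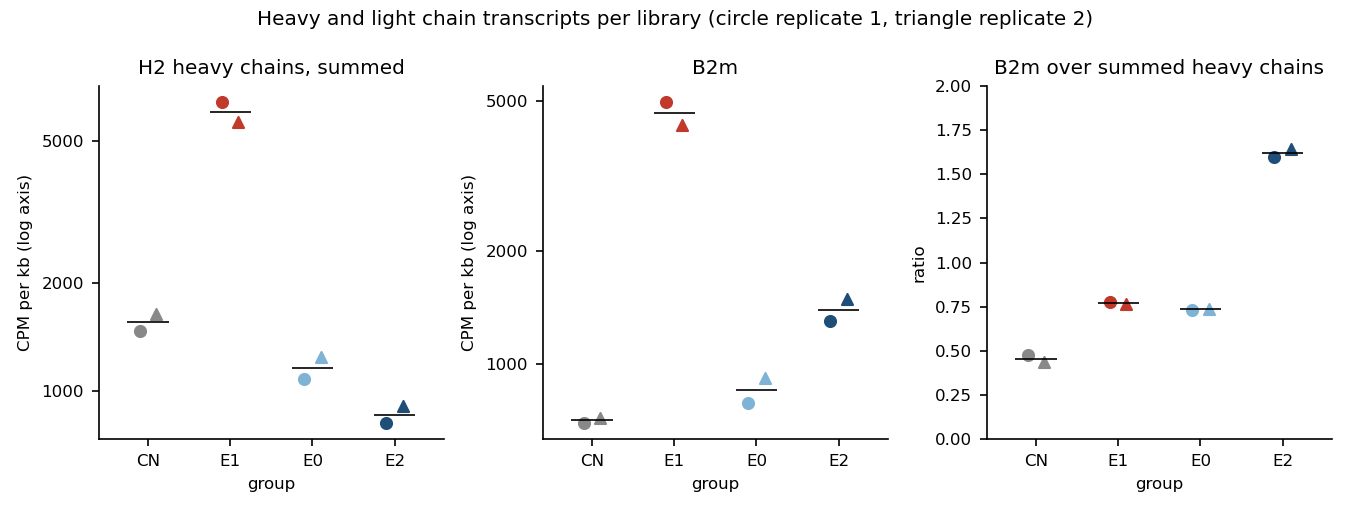
Summed H2 heavy chains (left) and B2m (middle), in CPM per kb on log axes, and their ratio (right, linear axis), with 1 point per library and a line at each group's mean. The ratio lies higher in E1 than in CN, at 0.777 and 0.766 against 0.474 and 0.438, and higher in E2 than in E0, at 1.60 and 1.64 against 0.730 and 0.739.

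The TAP and tapasin genes rose in E1 without exception and none was called in E2. Tap1 (chr17:34187553-34197225) and Tap2 (chr17:34203527-34216321) encode the subunits of the peptide transporter. Tap1 went from 121 and 133 CPM in CN to 1321 and 1189.8 CPM in E1 (log2 3.31 ± 0.10, adjusted p = 2.34e-07). Tap2 went from 204 and 209 CPM to 974 and 789 CPM (log2 2.09 ± 0.10, adjusted p = 4.49e-06). Per length, Tap2 stood above Tap1 in CN, at means of 54.6 and 23.2 CPM per kb, and level with it in E1, at 233 and 229. In E0 and E2, Tap1 stood at 110.5 and 118 CPM against 104 and 112 CPM and Tap2 at 136 and 143 CPM against 138 and 139 CPM, all overlapping.

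Tapbp (chr17:33915899-33929292) encodes tapasin, which bridges TAP and the empty heavy chain, and Tapbpl (chr6:125223933-125231860) encodes TAPBPR, a peptide editor outside the loading complex. Tapbp rose from 283 and 305 CPM to 1429 and 1282 CPM in E1 (log2 2.21 ± 0.09, adjusted p = 1.04e-06), and Tapbpl from 14.9 and 14.2 CPM to 161 and 136 CPM (log2 3.35 ± 0.11, adjusted p = 3.76e-07). In the second experiment Tapbp stood at 279.6 and 282 CPM in E0 and 244 and 243 CPM in E2, without overlap but not called (log2 -0.21 ± 0.08, adjusted p = 0.0832), and it was called with the 4 libraries of that experiment fitted alone (adjusted p = 0.0282). Tapbpl stood at 12.4 and 13.4 CPM in E0 and at 12.3 and 11.5 CPM in E2 (log2 -0.12 ± 0.10). Erap1 (chr13:74639568-74693201), the aminopeptidase that trims peptides in the endoplasmic reticulum, rose from 59.7 and 57.2 CPM to 179 and 163 CPM in E1 (log2 1.55 ± 0.07, adjusted p = 2.24e-06). It stood at 63.1 and 59.5 CPM in E0 and 67.0 and 65.4 CPM in E2 and was not called (adjusted p = 0.241).

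Of the 3 folding factors that class I shares with other glycoproteins, Calr and Pdia3 rose in both experiments, and Canx rose in E2 and was not called in E1. Calr (chr8:84841850-84846934) encodes calreticulin and went from 131 and 132 CPM in CN to 166 and 168 CPM in E1 (log2 0.34 ± 0.07, adjusted p = 0.00863). It went from 131 and 142 CPM in E0 to 224 and 204 CPM in E2 (log2 0.65 ± 0.07, adjusted p = 0.000248). Canx (chr11:50293961-50325673), which encodes calnexin, stood at 153 and 147 CPM in CN and 156 and 148 CPM in E1, with overlap (log2 0.02 ± 0.06, adjusted p = 0.898). It rose from 171 and 181 CPM in E0 to 217 and 222 CPM in E2 (log2 0.32 ± 0.06, adjusted p = 0.00488). Both were called higher in the E2 response than in the E1 response (Calr 0.31, adjusted p = 0.0476, and Canx 0.30, adjusted p = 0.0356). Without 1 library at a time, the adjusted p of this difference ran from 0.0513 to 0.171 for Calr and from 0.0352 to 0.136 for Canx.

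Pdia3 (chr2:121413775-121438687), which encodes the disulfide isomerase ERp57, stood at 164 and 152 CPM in CN and 203 and 180.1 CPM in E1 (log2 0.28 ± 0.07, adjusted p = 0.0346). It stood at 172 and 176 CPM in E0 and 216 and 215 CPM in E2 (log2 0.31 ± 0.07, adjusted p = 0.0133). The groups did not overlap in either experiment, and the 2 changes did not differ by the test (0.03 ± 0.10, adjusted p = 0.88). The call in E1 was lost without replicate 2 of CN (adjusted p = 0.17), without replicate 1 of E1 (adjusted p = 0.155) and with library totals as the scaling (adjusted p = 0.125), and the call in E2 was lost without any 1 of its 4 libraries (adjusted p = 0.0562 to 0.0812). Another 11 genes of endoplasmic reticulum translocation and glycoprotein quality control were read, of which 0 rose and 1 fell in E1. That 1 was Pdia4, a disulfide isomerase (log2 -0.27 ± 0.05). In E2, 7 of the 11 rose and 0 fell. Among all genes, 9.19% rose and 8.08% fell in E1, and 17.0% rose and 18.5% fell in E2. The largest of those 7 increases were in the chaperones Hspa5 (log2 0.76 ± 0.06, adjusted p = 6.25e-05) and Hsp90b1 (log2 0.70 ± 0.07, adjusted p = 0.000294).

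The 3 inducible catalytic subunits of the immunoproteasome all rose in E1. Psmb9 (chr17:34181987-34187764, minus strand; subunit β1i) went from 53.7 and 59.8 CPM in CN to 543 and 454 CPM in E1 (log2 3.13 ± 0.10, adjusted p = 3.08e-07). Psmb8 (chr17:34197721-34201454; β5i) went from 93.5 and 82.0 CPM to 684 and 532 CPM (log2 2.79 ± 0.14, adjusted p = 3.85e-06). Psmb10 (chr8:105935735-105938444; β2i) went from 36.2 and 32.8 CPM to 473 and 344 CPM (log2 3.57 ± 0.15, adjusted p = 1.28e-06). No CN library reached the E1 range for any of them. Psmb9 starts head to head with Tap1: their 300-base promoter windows share 275 bases, and neither window held an interferon response pattern or a κB form as spelled here. In E2, Psmb9 fell to 36.0 and 36.4 CPM from 46.2 and 45.1 CPM in E0 (log2 -0.34 ± 0.09, adjusted p = 0.0228), and Tap1 was not called (log2 -0.08 ± 0.09, adjusted p = 0.519). Psmb9 lost its call without any 1 of the 4 libraries of that experiment (adjusted p = 0.0727 to 0.11). Psmb8 stood at 76.6 and 82.4 CPM in E0 and 78.2 and 89.2 CPM in E2, and Psmb10 at 35.3 and 35.7 CPM and 35.0 and 37.2 CPM. Both overlapped and were not called.

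Each inducible subunit takes the place of a constitutive one in newly assembled particles, so the balance was read as a ratio of transcript levels per length in each library. Psmb8 to Psmb5 was 0.417 and 0.460 in CN and 2.49 and 2.53 in E1. Psmb9 to Psmb6 was 0.696 and 0.897 in CN and 5.96 and 5.85 in E1. Psmb10 to Psmb7 was 1.73 and 1.91 in CN and 18.6 and 18.0 in E1. Which of a pair was the more abundant in CN depended on the division by length, for which the union of annotated exons was used (3381 bases for Psmb8 and 899 for Psmb5). As plain counts the CN ratios were 1.57 and 1.73 for Psmb8 to Psmb5, 1.36 and 1.75 for Psmb9 to Psmb6, and 0.861 and 0.952 for Psmb10 to Psmb7. The change of a ratio between groups is the same on both scales. The ratios were 5.73, 7.48 and 10.08 times as high in E1 as in CN. In the second experiment all 3 ratios were lower in E2 than in E0. Psmb8 to Psmb5 was 0.425 and 0.406 in E0 and 0.219 and 0.238 in E2. Psmb9 to Psmb6 was 0.626 and 0.612 in E0 and 0.383 and 0.371 in E2. Psmb10 to Psmb7 was 1.55 and 1.48 in E0 and 1.08 in both E2 libraries. The ratio in E2 was 0.549, 0.609 and 0.713 of that in E0, and none of the 6 comparisons had overlapping libraries. Each exact permutation test, two-sided, gave p = 0.333, the smallest that this design allows.

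**Figure D4:**
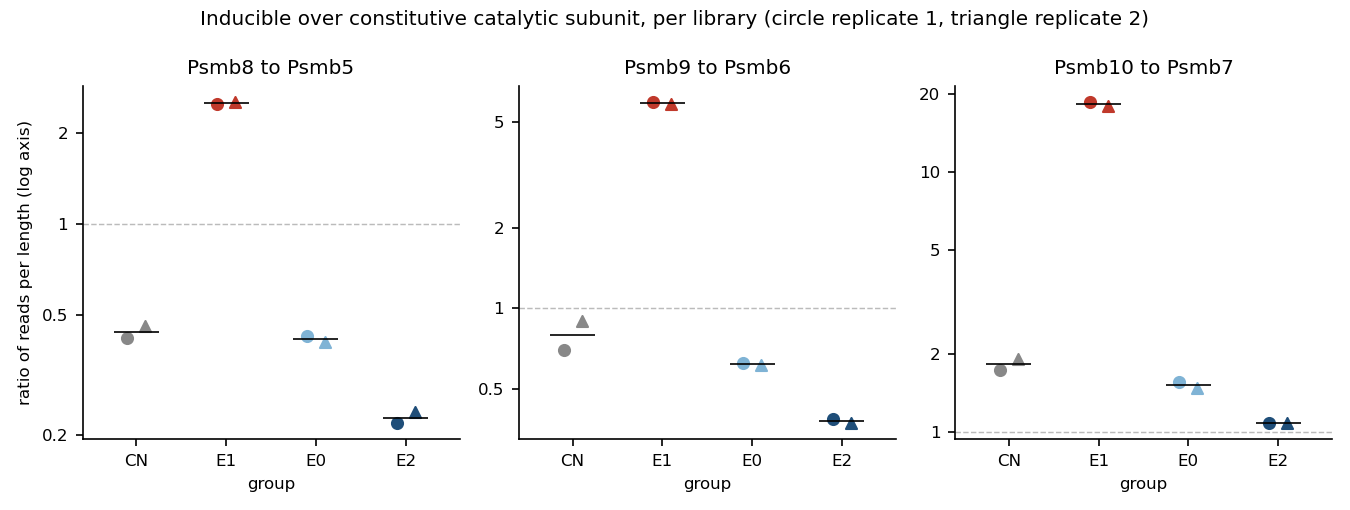
Ratio of each inducible subunit to its constitutive counterpart, per length of transcript, on log axes, with circles for replicate 1, triangles for replicate 2, lines at the group means and a dashed line at equal levels. In all 3 panels the E1 libraries lie above the CN libraries, up to 18.6 for Psmb10 to Psmb7, and the E2 libraries lie below the E0 libraries, down to 0.219 for Psmb8 to Psmb5.

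In E2 it was the constitutive subunits that rose. Psmb5, Psmb6 and Psmb7 were not called in E1 (median log2 fold change 0.23) and all 3 rose in E2, Psmb5 by 0.94 ± 0.15 (adjusted p = 0.00185) and Psmb7 by 0.51 ± 0.14 (adjusted p = 0.026). Among all genes, 9.19% rose in E1 and 17.0% rose in E2. Another 18 proteasome genes were read, most of them for core subunits or assembly factors of the 20S particle. Of these 18, 10 rose in E1 and 10 rose in E2, and 0 fell in either. The largest increases in E1 were those of Psma5, an α-ring subunit (log2 1.85 ± 0.08), and Pomp, the assembly chaperone (log2 1.25 ± 0.17). In E2 the largest were Psmb3 (log2 0.63 ± 0.11) and Psma6 (log2 0.62 ± 0.11).

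The PA28 activator opens the proteasome core, and its α and β subunits form the interferon-inducible ring while the γ subunit forms a nuclear ring of its own. Psme1 (α; chr14:55578123-55581529) rose from 96.3 and 90.2 CPM in CN to 537 and 445 CPM in E1 (log2 2.40 ± 0.09, adjusted p = 1.11e-06). Psme2 (β; chr14:55587441-55591113) rose from 56.9 and 51.0 CPM to 497 and 370.4 CPM (log2 3.01 ± 0.14, adjusted p = 3.46e-06). Psme3 (γ; chr11:101316213-101323537) stood at 66.7 and 61.1 CPM in CN and 75.2 and 71.0 CPM in E1, without overlap but not called (log2 0.19 ± 0.07, adjusted p = 0.0925). The α and β genes thus separated from the γ gene in E1, while in E2 the largest change was that of Psme2. Psme2 rose from 47.2 and 53.4 CPM in E0 to 69.4 and 75.5 CPM in E2 (log2 0.53 ± 0.14, adjusted p = 0.0178), but was not called without replicate 1 of E0 (adjusted p = 0.11), replicate 1 of E2 (adjusted p = 0.0523) or replicate 2 of E2 (adjusted p = 0.107). Psme1 stood at 86.1 and 88.6 CPM in E0 and 89.9 and 92.5 CPM in E2 (log2 0.06 ± 0.09, adjusted p = 0.626). Psme3 stood at 67.9 and 70.2 CPM in E0 and 79.0 and 78.4 CPM in E2 (log2 0.19 ± 0.07, adjusted p = 0.062). The annotated Psme2 transcripts share 28.3% of their 50-base stretches with Psme2b.

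Nlrc5 (chr8:94434356-94527272, plus strand), the transactivator that assembles on class I promoters, rose in both experiments. It went from 24.7 and 25.4 CPM in CN to 722 and 726 CPM in E1, a 28.9-fold increase (log2 4.85 ± 0.09, adjusted p = 5.19e-08). It went from 21.1 and 24.5 CPM in E0 to 45.6 and 47.2 CPM in E2, a 2.03-fold increase (log2 1.02 ± 0.08, adjusted p = 5.64e-05). The 2 responses differed by -3.83 ± 0.11 (adjusted p = 8.69e-07). In E2, 1 of the 13 heavy chains of the H2 complex rose, 3 fell and 9 were not called, where 17.0% of all genes rose and 18.5% fell, and their median log2 fold change was 0.00.

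The signalling genes that act upstream of class I are given by list. Among all genes, 9.19% rose and 8.08% fell in E1, and 17.0% rose and 18.5% fell in E2. Of 11 genes of the interferon-γ signal, 7 rose and 0 fell in E1, among them Irf1 (log2 4.23 ± 0.10, adjusted p = 1.09e-07). In E2, 6 rose and 3 fell, with the largest increases in Socs1, a feedback inhibitor (log2 2.54 ± 0.16, adjusted p = 2.09e-05), and Irf8 (log2 0.74 ± 0.20, adjusted p = 0.023), and the largest decreases in Jak1 (log2 -0.46 ± 0.08) and Irf2 (log2 -0.41 ± 0.06). Of 5 NF-κB subunits, 4 rose in each experiment: Relb by 2.00 ± 0.09 in E1 and 2.23 ± 0.10 in E2, and Nfkb2 by 1.46 ± 0.06 and 2.23 ± 0.06. Rela fell in E2 (log2 -0.22 ± 0.06, adjusted p = 0.0197). Of 8 factors that bind class I promoters with NLRC5, Rfx5 rose (log2 1.26 ± 0.16) and Nfyb fell (log2 -0.25 ± 0.07) in E1. In E2, Nfyb rose (log2 0.42 ± 0.07). The calls among these 8 were few and near the shares among all genes.

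Among 6 other peptidases, Lap3, a leucine aminopeptidase, rose in both experiments, by 2.47 ± 0.17 in E1 and 1.93 ± 0.16 in E2. In E2, 4 of the 6 rose, among them Npepps (log2 0.83 ± 0.08), where 17.0% of all genes rose. Of 13 further class I and class I-like genes, 7 rose and 0 fell in E1, where 9.19% and 8.08% of all genes did. In E2, 0 rose and 2 fell, where 17.0% and 18.5% of all genes did. Procr, the endothelial protein C receptor, rose in E1 from a mean of 0.0474 ± 0.0671 CPM to 13.1 ± 0.880 CPM (SD, n = 2), and H2-Q5 rose from 13.6 ± 3.41 CPM to 195 ± 5.76 CPM. H2-K2 fell in E2, from 51.3 ± 0.0433 CPM to 26.4 ± 0.0877 CPM. The annotation lists H2-K2 as a transcribed pseudogene and H2-Q5 as a polymorphic pseudogene.

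The promoter patterns printed above can be set beside these calls. All 12 members with an interferon response pattern in the window rose in E1. Of the 12 with a window but neither pattern, 8 rose (Tap1, Tapbp, Pdia3, Calr, Psmb8, Psmb9, Psmb10 and Psme2), 1 fell (Mr1) and 3 were not called (H2-Q2, Canx and Psme3). The 7 members without a window, whose patterns are thus not known, all rose in E1, and in E2 1 of them rose and 2 fell. Among all genes, 9.19% rose and 8.08% fell in E1. In E2, 1 of the first 12 rose and 2 fell, and 5 of the other 12 rose and 1 fell, where 17.0% of all genes rose and 18.5% fell. The difference between the promoter classes was not tested. The windows do not reach sites further from the start, and a gene without a match here can hold other forms of these motifs.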

How the data were processed

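mRNA libraries (TruSeq Stranded mRNA) of 8 cultured eosinophil samples were grouped by their labels into CN, E1, E0 and E2, with 2 libraries each. The authors deposited raw read counts per Ensembl gene, made with STAR and featureCounts on mm10, per the submitters' processing notes. Their versions, annotation, strand setting, handling of multi-mapping reads and filters were not given in the sources used here. A row without a gene name held each column's total (100% of the named genes' counts) and was dropped. Of the 15917 IDs, 15730 matched a symbol and 187 did not. Gene positions are from GENCODE M21 on mm10, and CPM per kb uses the union of exon lengths there.

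The count tests used edgeR 4.0.16 under R 4.3.3, with filterByExpr (4 genes removed), TMM scaling, a model of the 4 group means in the 8 libraries, which leaves 4 residual degrees of freedom, and two-sided quasi-likelihood F tests, adjusted by Benjamini-Hochberg over 15913 genes. A gene was called below 0.05. A biological coefficient of variation of 0.1474 was common to all genes. The contrasts tested were E1 against CN, E2 against E0, and the second change minus the first. Log2 fold changes are given ± SE. A count of 0 in 1 library allows up to 3 counts, and this floor covers counting error only, since reads amplified by PCR are not independent molecules. The fit was also run on simulated data, and the outcome is not reported here. Alternatives were other scalings and filters, DESeq2 1.42.0, replicate blocks, each experiment fitted alone, and each library left out.

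The members and the gene lists were chosen with earlier results of these data known. Every member is named, and from each other list the 2 called genes with the largest change each way and at least 10 CPM in the higher group. Some genes that these rules take are not reported here.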

Additional observations from a re-analysis of the deposited data

How the results depend on the processing

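The count of members higher in E1 ran from 26 to 28 and the 25 members lower in the difference between the responses were called in each setting run: 2 other scalings, DESeq2, 2 other filters, 2 blocks and each library left out. Without 1 library at a time, the members called in E2 numbered 7 to 10, those lower in E2 2 to 4, those lower in E1 0 to 1 and those higher in the difference 0 to 1 (3 with all libraries), and all genes called in E2 numbered 3334 to 3984 (5655). With 1 library less, the lone sample is assumed to vary like the other groups. The medians then ran in E1 from 2.51 to 2.74 for all members and for heavy chains, 1.71 to 1.93 for loading and folding genes and 2.69 to 3.08 for immunoproteasome and PA28. In E2 they ran from -0.0668 to 0.0835 for all members and -0.215 to 0.0815 for heavy chains. In the difference they ran from -2.68 to -2.33 (all members), -2.96 to -2.68 (heavy chains), -1.88 to -1.66 (loading) and -2.78 to -2.39 (immunoproteasome and PA28).

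Sign changes touched only genes that were not called. With library totals as scaling they were Canx in E1 (-0.0762), H2-T22 in E2 (-0.0102) and Psme3 in the difference (0.0720), and with a filter of 1 CPM in 2 libraries H2-T22 in E2 (-0.000437). Without 1 library, ranges crossed 0 in E1 for Canx (-0.0246 to 0.0576) and H2-Q2 (-0.17 to 3.49), and in the difference for Pdia3 (-0.0549 to 0.117) and Psme3 (-0.0865 to 0.0559). In E2 they did so for H2-Q1 (-0.35 to 0.71), H2-Q4 (-0.0475 to 0.517), H2-Q6 (-0.15 to 0.99), H2-Q7 (-0.35 to 0.55), H2-T10 (-0.20 to 0.17), H2-T22 (-0.0668 to 0.0815), H2-T23 (-0.107 to 0.0108), H2-M3 (-0.0971 to 0.606), Tap2 (-0.0516 to 0.0244), Psmb8 (-0.0236 to 0.166) and Psmb10 (-0.0191 to 0.0676). The wider interferon response pattern was found in 5 member genes and GAANNGAAA in 8.

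Replicate numbers pair no samples by the labels. Deviations of same-numbered libraries correlated across 15907 genes (sex-linked ones left out) at 0.412 between CN and E1 and 0.480 between E0 and E2, and at -0.0431 to 0.124 between experiments. With a replicate block within each experiment, 5520 genes were called in E1 (2749 without), 8514 in E2 (5655) and 6821 in the difference (4018), and 29, 16 and 29 members. The block added Psme3 in both experiments (adjusted p = 0.011 and 0.00832), H2-K1 (-0.28, adjusted p = 0.0419), H2-Q6 (0.37, adjusted p = 0.0391) and Tapbp (-0.21, adjusted p = 0.0183) in E2, and Mr1 in the difference (adjusted p = 0.019). With a block shared by all groups, 0 members were higher in the difference. The causes were not tested. Protein identity between heavy chains, planned as a check of near copies, was not run, and shared 50-base stretches were used in its place.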

Other observations

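Many class I heavy chains differed between replicates in a shared direction, which was turned in E1. In CN, E0 and E2 alike, replicate 1 lay below replicate 2 for 9 of the 13 heavy chains of the H2 complex (69.2%), for 4 of the 18 other members (22.2%) and for 2319 of all 15913 genes tested (14.6%). The widest gap of this kind was in H2-Q6, where replicate 2 stood at 1.53, 2.13 and 1.80 times replicate 1 in CN, E0 and E2, and at 0.995 times in E1. For H2-Q7 the ratios were 1.33, 1.72 and 1.74, and 1.05 in E1. In E1 replicate 2 lay below replicate 1 for 12 of the 13 heavy chains (92.3%), as for H2-K1 at 0.854 times and H2-T23 at 0.809 times, for 16 of the 18 other members (88.9%) and for 54.3% of all genes. Replicate 1 carried Y-linked transcripts and replicate 2 carried Xist in every group, so sex and replicate number cannot be told apart. This order was noticed in the data, the genes share sequence with each other, and no test was made.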
